A study of Mus musculus with 4 samples.

Results

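The 8 genes followed here mark the steps from neural stem cell to young neuron in the adult dentate gyrus, and their levels were read from hippocampus RNA-Seq libraries. The genes are Sox2, Hes5, Neurog2, Eomes, Neurod1, Dcx, Igfbpl1 and Sox4. They were chosen by symbol, as 8 of the 22609 genes counted. All 4 libraries came from ovariectomized females. FLOX+GCI contributed 2 of them and FBN-ARO-KO+GCI, called the knockout below, the other 2. In FBN-ARO-KO mice, Cre under the CaMKIIα promoter deletes floxed Cyp19a1, the gene of the estrogen-producing enzyme aromatase, in excitatory neurons of the forebrain, whereas FLOX mice keep it. All mice were 3 to 5 months old, lost their ovaries 1 week before surgery, had both common carotid arteries clipped for 20 min (global cerebral ischemia, GCI) and gave hippocampal RNA after 24 h of reperfusion. No library without ischemia was analysed here, so every value below is a level after GCI. The Cre driver is described as acting in excitatory neurons of the forebrain, and the sources used here do not say whether the libraries of a group were separate mice or pools.

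Counts on genes totaled 24774433 and 24333396 in the FLOX+GCI libraries and 33076795 and 30114003 in the knockout libraries. Values per library are CPM, counts scaled to library size with edgeR's TMM factors. The limit that a count of 0 would allow (3 counts) was 0.0907 to 0.123 CPM by library totals without those factors, for counting error only. Pearson's r of log2 CPM between libraries was 0.986 to 0.992. For Cyp19a1 itself the FLOX+GCI libraries held 4 and 1 counts and those of the knockout 2 and 2, which cannot check the genotype labels. Markers of hippocampal principal cells were present in every library, with summed levels of 423 to 561 CPM for 10 dentate granule cell genes and 2309 to 2499 CPM for 10 CA pyramidal cell genes. None of these markers was at 0.

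In the subgranular zone of the dentate gyrus, radial glia-like stem cells divide slowly and keep Sox2 and the Notch target Hes5. Their daughters pass through an intermediate progenitor state marked by the basic helix-loop-helix factor Neurog2 and the T-box factor Eomes (Tbr2), and then become neuroblasts that carry Neurod1, Dcx, Igfbpl1 and Sox4 before they mature into granule cells. Notch signaling between neighboring cells drives Hes5 through the DNA-binding protein RBPJ and holds proneural genes such as Neurog2 back. Global ischemia is known to raise the production of new granule cells over the days and weeks that follow it. Most of these genes are also used outside the lineage, as Sox2 is in astrocytes and Neurod1 is in mature granule cells. In bulk RNA, fewer cells of a type and less RNA per cell cannot be told apart.

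The promoter of Hes5 is shown because Hes5 is the direct Notch readout among these genes. The 250 bases before its start (chr4:154960673-154960922, plus strand, RefSeq on GRCm38.p6) hold the core of the RBPJ binding motif, GTGGGAA, once on each strand, at 226 to 220 bases before the start as TTCCCAC and at 83 to 77 bases before it. Capitals mark both copies.
Hes5: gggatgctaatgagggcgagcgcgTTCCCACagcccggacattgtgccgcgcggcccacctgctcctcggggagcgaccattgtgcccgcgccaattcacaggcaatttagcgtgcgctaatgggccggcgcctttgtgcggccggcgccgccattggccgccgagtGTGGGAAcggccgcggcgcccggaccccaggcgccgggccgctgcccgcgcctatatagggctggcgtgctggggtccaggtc
Both strands of all 32851 promoter windows of that length were searched, and 5.42% held the core at least once and 0.161% at least 2 times. None of the other windows of these genes held it in its 250 bases. This match describes letters only and does not show binding.

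RefSeq windows were found for 7 of the 8 genes, all but Igfbpl1. Among these 7, 4 share the letters TATATA within the last 60 bases before the start, which occurred in 1.56% of all 32851 windows. Those 4 stretches are printed 5′ to 3′ on the gene's strand with TATATA in capitals, from chr2:79456637-79456696 (minus strand), chr9:118478129-118478188 (plus), chr4:154960863-154960922 (plus) and chr3:127633076-127633135 (plus), all on GRCm38.p6.
Neurod1: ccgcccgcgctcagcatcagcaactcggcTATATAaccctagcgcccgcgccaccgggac
Eomes: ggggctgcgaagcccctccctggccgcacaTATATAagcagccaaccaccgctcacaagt
Hes5: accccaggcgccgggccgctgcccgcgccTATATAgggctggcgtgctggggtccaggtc
Neurog2: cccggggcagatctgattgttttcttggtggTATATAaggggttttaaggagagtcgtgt
The letters lay 31 to 24 bases before the start in these proneural, T-box and Notch target genes, and the same stretch of Dcx, Sox2 and Sox4 did not hold them. The E-box CANNTG, the general motif of basic helix-loop-helix factors, occurred in 66.2% of all windows and in those of Neurod1, Hes5 and Sox4. All motifs were searched on both strands, and no copy overlapped another in these windows. GC content of the 250 bases was lowest for Dcx at 41.6% and highest for Sox2 at 72.0%, beside a median of 52.4% over all windows.

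The main comparison asked whether loss of aromatase in forebrain neurons goes with other levels of the neurogenic genes after GCI. Of the 8 genes, 7 passed edgeR's filter on low counts, and Eomes did not. None of the 7 differed between genotypes by edgeR's quasi-likelihood test at an adjusted p of 0.05, a level that 0.0138% of the 14527 genes tested reached (2 genes). At an unadjusted p under 0.05 there was 1, Neurod1, beside 16.5% of all genes in either direction and 8.72% with higher levels in the knockout. The likelihood ratio test of edgeR also called 0 of the 7, and DESeq2 gave none of them an adjusted p and had the same gene alone under 0.05 unadjusted. Both libraries of one genotype lay beyond both of the other in 3 of the 7, Neurod1 and Neurog2 higher and Dcx lower in the knockout, whereas 51.8% of all genes tested did so and 25.9% were higher. The median log2 fold change (the knockout over FLOX+GCI) was 0.14 over the 7 genes and -0.0074 over all genes tested. The share of the 7 that were separated was below that of all genes, so the separation of groups seen in 3 genes is not a result about neurogenic genes. For one gene with 2 libraries a genotype, the smallest two-sided p of an exact permutation test is 0.333. The p-values of edgeR set a difference against a spread between these libraries that is estimated in part over all genes. That spread may be technical.

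**Figure D1:**
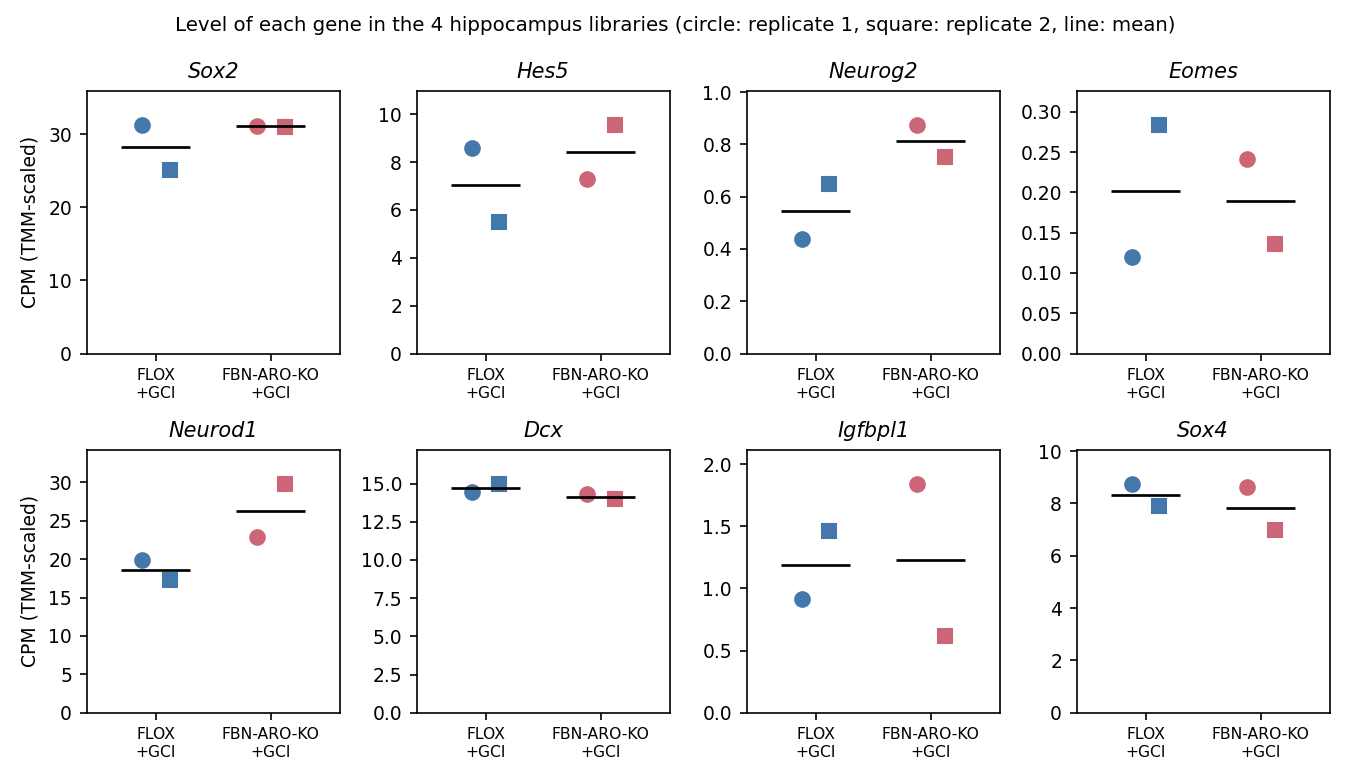
TMM-scaled CPM (y axis, own scale for each gene) of the 8 genes in the FLOX+GCI and FBN-ARO-KO+GCI libraries, with one point for each library and a bar at the group mean. Neurod1 ran from 17.2 to 29.8 CPM with both FBN-ARO-KO+GCI libraries on top, whereas the libraries of Sox2, Hes5, Igfbpl1, Sox4 and Eomes overlapped between genotypes.

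**Figure D2:**
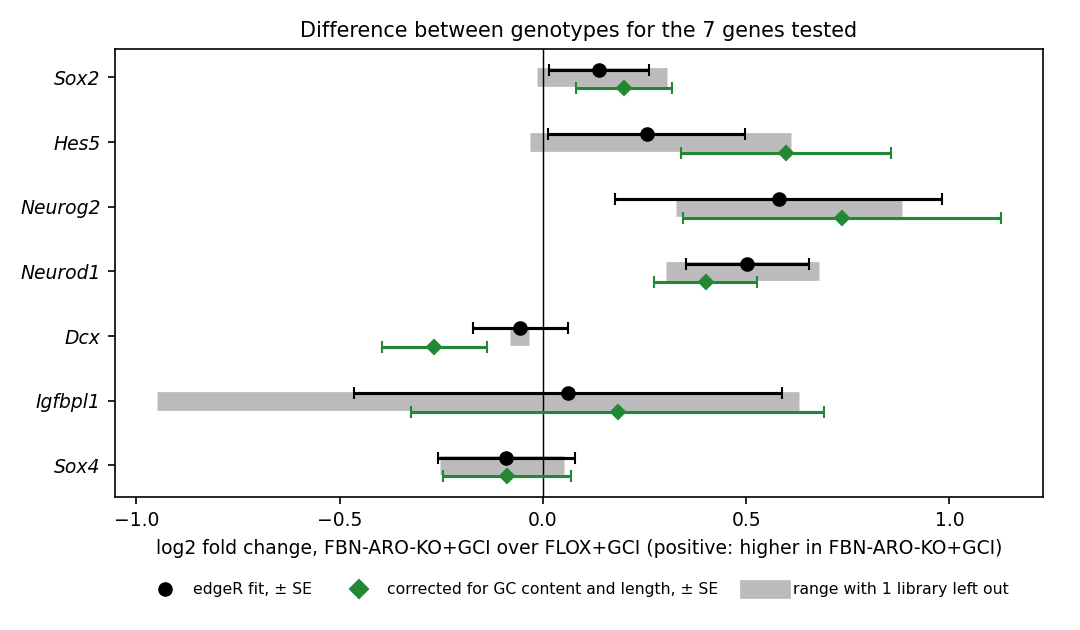
Log2 fold change of each gene (x axis, FBN-ARO-KO+GCI over FLOX+GCI) with its approximate standard error, before and after GC content and length were corrected for. Neurod1 stood at 0.50 before and 0.40 after the correction, and Dcx at -0.056 before and -0.27 after.

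Sox2, an HMG-box factor that keeps stem cells undifferentiated and is also present in astrocytes (chr3:34548927-34551383 on NCBIM37, the build mm9 of all gene positions given here, plus strand), lies within the noncoding gene Sox2ot on the same strand and shares 0 exonic bases with it. Its levels were 31.3 and 25.2 CPM in FLOX+GCI and 31.2 and 31.0 CPM in the knockout. FLOX+GCI replicate 2 was low and the other 3 libraries were alike, so the groups overlapped. Sox2 had a log2 fold change of 0.14 ± 0.12 (SE) with an adjusted p of 0.576 by edgeR. Without FLOX+GCI replicate 2 this was -0.014, and without FLOX+GCI replicate 1 it was 0.31.

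Hes5, the transcriptional repressor through which Notch keeps stem cells from differentiating (chr4:154335032-154336480, plus strand), showed the same low library. It had 8.58 and 5.52 CPM in FLOX+GCI and 7.30 and 9.56 CPM in the knockout. The groups overlapped, with FLOX+GCI replicate 1 between both knockout libraries. The log2 fold change was 0.26 ± 0.24 (SE) with an adjusted p of 0.605 by edgeR. It was -0.032 without FLOX+GCI replicate 2 and 0.61 without FLOX+GCI replicate 1. A noncoding transcript on the opposite strand covers 31.8% of the exonic bases of Hes5, and as no source used here says how strand was treated in the counting, reads of both cannot be told apart.

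Astrocytes share Sox2 with stem cells, and 10 astrocyte markers were therefore read beside these values. Their summed level was 6008 and 6083 CPM in FLOX+GCI and 6231 and 6864 CPM in the knockout, with a median log2 fold change of 0.070 and none at 0, and edgeR, the likelihood ratio test and DESeq2 called 0 of them, with 1 higher and 1 lower at an unadjusted p under 0.05. FLOX+GCI replicate 2 was the lowest library for 7 of the 10, among them the glutamate transporter gene Slc1a2 (2988 CPM there) and the glycolytic gene Aldoc (896 CPM). Gfap, a marker of reactive astrocytes named here after its values were seen, went the other way, with 396 and 900 CPM in FLOX+GCI and 502 and 560 CPM in the knockout. The library that was low in Sox2 and Hes5 was thus lowest for most astrocyte markers and high in Gfap. This was not particular to astrocytes, as the same library was lowest for 7 of 10 dentate granule cell genes. It was lowest for 3 of 10 CA pyramidal cell genes and 0 of 8 endothelial cell genes. No share over all genes is given for the lowest library. The part of astrocytes in the Sox2 and Hes5 values was not tested.

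Neurog2, a proneural factor of intermediate progenitors (chr3:127336054-127338549, plus strand), was read 11 and 16 times in FLOX+GCI and 29 and 22 times in the knockout. These counts correspond to 0.439 and 0.649 CPM against 0.875 and 0.751 CPM. Both knockout libraries were higher, but the 95% Poisson intervals of the nearest libraries, 0.371 to 1.05 CPM and 0.471 to 1.14 CPM, overlapped. The log2 fold change of 0.58 ± 0.40 (SE) was the largest of the 7 and had the second largest error, with an adjusted p of 0.476 by edgeR. It ranged from 0.33 to 0.88 when each library was left out in turn.

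Eomes, the T-box factor that defines intermediate progenitors (chr9:118387330-118395250, plus strand), was close to the limit of these libraries. FLOX+GCI libraries held 3 and 7 of its reads and knockout libraries 8 and 4, or 0.120, 0.284, 0.241 and 0.137 CPM. The widest counting interval, of FLOX+GCI replicate 2, ran from 0.114 to 0.585 CPM and covered the values of all 4 libraries. When genes down to 1 count were kept, the log2 fold change was -0.070 ± 0.79 (SE), so a difference in Eomes was not detectable at this depth.

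Neurod1, the basic helix-loop-helix factor that drives neuroblasts toward the granule cell fate (chr2:79292678-79296908, minus strand), showed the smallest p among these genes. It had 19.8 and 17.2 CPM in FLOX+GCI and 22.8 and 29.8 CPM in the knockout. Every knockout library was above every FLOX+GCI library, and knockout replicate 2 stood highest. The means were 18.5 ± 1.83 and 26.3 ± 4.90 CPM (SD, n = 2 each), which is 1.42-fold or 0.50 ± 0.15 (SE) on the log2 scale. The unadjusted p of edgeR's quasi-likelihood test was 0.0122 and the adjusted p 0.245, so the difference did not pass the threshold over all genes. Without knockout replicate 2, the log2 fold change was 0.30 with an unadjusted p of 0.0897 by edgeR, and without knockout replicate 1 it was 0.68. Neurod1 shares 7.37% of its exonic bases with Cerkl on the same strand and 5.64% with a noncoding gene on the opposite strand.

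Mature granule cells keep Neurod1, and most granule cell markers had higher means in the knockout as well. The 10 dentate granule cell genes summed to 481 and 423 CPM in FLOX+GCI and 561 and 540 CPM in the knockout, with both knockout libraries higher. Their median log2 fold change was 0.31, 8 of 10 were higher in the knockout, and 7 had groups that did not overlap in that direction, beside 25.9% of all genes. Calb1, a calcium-binding protein of mature granule cells, had 127 and 133 CPM in FLOX+GCI and 190 and 184 CPM in the knockout. Its log2 fold change was 0.53 ± 0.071 (SE), with an adjusted p of 0.173 by edgeR's quasi-likelihood test, 4.74e-06 by the likelihood ratio test and 1.18e-05 by DESeq2. Corrected for GC content and length it was 0.25, and the list median 0.28. Dsp, a desmosomal protein gene used as a granule cell marker, had a log2 fold change of 0.42 with adjusted p-values of 0.238, 0.0479 and 0.0360 by the same tests, and 0.41 after the correction. No granule cell marker was called by the quasi-likelihood test, and at an unadjusted p under 0.05 by it 5 were higher and 1 was lower. The lower one, named after its values were seen, was C1ql2. It had 79.2 and 53.5 CPM in FLOX+GCI and 49.6 and 47.7 CPM in the knockout, a log2 fold change of -0.45, or -0.12 after the correction. The other tests called 2 markers each. Over all genes, the likelihood ratio test called 294 of 14527 and DESeq2 called 285 of the 5796 with an adjusted p. Prox1, which is in the neuroblast list too, had 50.5 and 53.8 CPM against 57.2 and 61.9 CPM. The part of mature granule cells in the Neurod1 value was not tested.

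Dcx, the microtubule-associated protein of migrating neuroblasts and the usual marker of new neurons (chrX:140290385-140367854, minus strand), had nearly the same level in all libraries. It had 14.4 and 15.0 CPM in FLOX+GCI and 14.3 and 14.0 CPM in the knockout. The groups did not overlap, but the 95% Poisson intervals of all 4 libraries did, as the lowest, of knockout replicate 2, ran from 12.6 to 15.4 CPM and the highest, of FLOX+GCI replicate 2, from 13.5 to 16.6 CPM. The means were 14.7 ± 0.370 and 14.1 ± 0.260 CPM (SD, n = 2 each). The log2 fold change was -0.056 ± 0.12 (SE) with an adjusted p of 0.828 by edgeR. Dcx is also made by the interneuron-bound neuroblasts of the neighboring subventricular zone, whose 8 marker genes summed to 51.6 and 48.6 CPM in FLOX+GCI and 47.2 and 46.2 CPM in the knockout, with none at 0. Those sums were lower in both knockout libraries, as Dcx was, and their part in the Dcx value was not tested.

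Over the 82 other tested genes of the pathway lists, the patterns nearest to Dcx across the 4 libraries belonged to Maml1, Marcksl1 and Stmn1. Their root mean square distances from Dcx in centered log2 CPM were 0.0279, 0.0310 and 0.0538. Maml1, a coactivator of Notch, had 14.7 and 15.8 CPM in FLOX+GCI and 14.7 and 14.9 CPM in the knockout. These are genes with little spread over these libraries, and likeness over 4 libraries is a description only.

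Igfbpl1, a secreted protein of the insulin-like growth factor binding family found in neuroblasts (chr4:45822340-45839795, minus strand), varied most within a genotype. It was read 23 and 36 times in FLOX+GCI and 61 and 18 times in the knockout, or 0.918, 1.46, 1.84 and 0.615 CPM. The knockout held both the highest and the lowest library, 2.99-fold apart, and their 95% Poisson intervals of 1.41 to 2.36 CPM and 0.364 to 0.971 CPM did not overlap. The log2 fold change was 0.062 ± 0.53 (SE) with an adjusted p of 0.962 by edgeR, and it turned to -0.95 without knockout replicate 1 and to -0.23 without FLOX+GCI replicate 1.

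Sox4, an HMG-box factor that opens the neuronal program in neuroblasts (chr13:29040788-29045582, minus strand), overlapped between genotypes. It had 8.74 and 7.91 CPM in FLOX+GCI and 8.63 and 6.999 CPM in the knockout. In each genotype replicate 2 was the lower library. The log2 fold change was -0.090 ± 0.17 (SE) with an adjusted p of 0.805 by edgeR, and 0.053 without knockout replicate 2. A noncoding gene on the opposite strand covers 54.6% of its exonic bases, so that Sox4 counts may include reads of it.

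Per kilobase of transcript, the levels ran from high to low in the order Sox2, Neurod1, Hes5, Sox4, Dcx, Igfbpl1, Neurog2 and Eomes. Mean levels over the 4 libraries were 12.1, 8.22, 6.08, 1.68, 1.59, 0.422, 0.305 and 0.0549 CPM per kilobase in that order, a span of 219.8-fold from Sox2 to Eomes. The ranges over libraries overlapped for Sox2 and Neurod1, for Neurod1 and Hes5, for Sox4 and Dcx and for Igfbpl1 and Neurog2. They stood apart for Hes5 and Sox4, for Dcx and Igfbpl1 and for Neurog2 and Eomes. Sox2 exceeded Neurod1, and Neurod1 exceeded Hes5, in 4 of 4 libraries, whereas Sox4 exceeded Dcx in 3 of 4 and Igfbpl1 exceeded Neurog2 in 3 of 4. By the 4-library mean, both genes of the intermediate progenitor stage came last, but in knockout replicate 2 Igfbpl1 (0.215 CPM per kilobase) was below Neurog2 (0.337).

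The difference between genotypes followed GC content over all genes. Spearman's rho between log2 fold change and GC content of the longest coding transcript was -0.55 over 14004 genes, which share the same 4 libraries and are not independent. The median log2 fold change was 0.27 in genes of at most 40% GC and -0.25 in those above 60%. The same trend was present within a genotype, between knockout replicates 2 and 1 (rho -0.48), and was 0.10 between FLOX+GCI replicates 2 and 1. The neurogenic genes span this range, from 40.6% GC in Dcx through 43.6% in Neurod1 and 52.1% in Sox2 to 62.1% in Hes5.

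**Figure D3:**
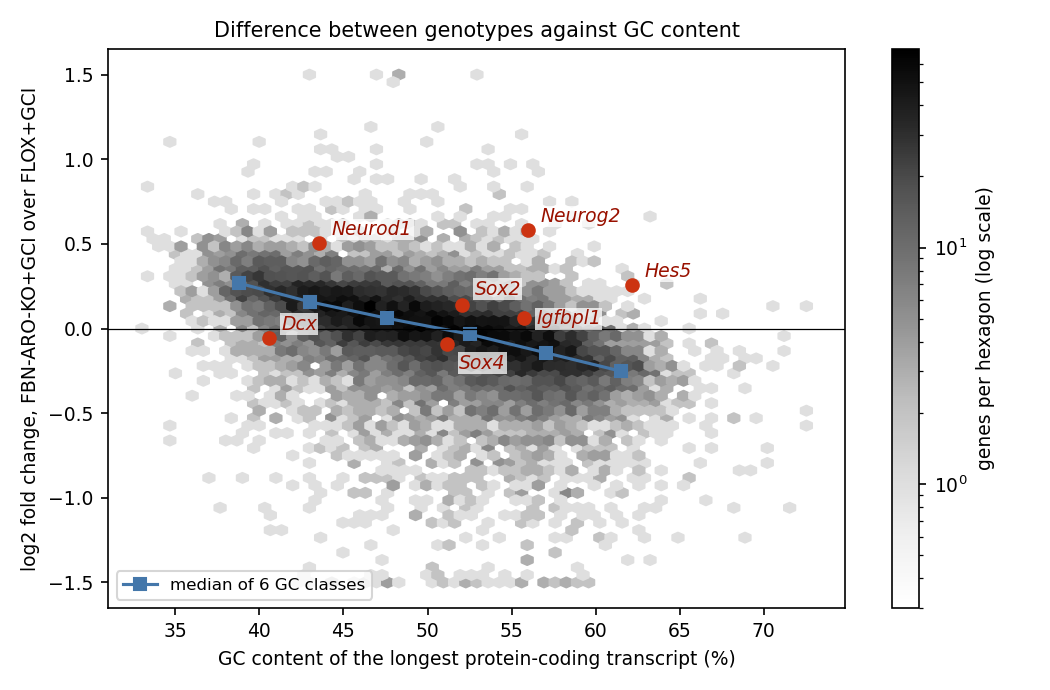
Log2 fold change (y axis, FBN-ARO-KO+GCI over FLOX+GCI) against GC content of the transcript in percent (x axis) for 14004 genes as hexagons shaded by number of genes, with class medians in blue and 7 neurogenic genes in red. The medians go from 0.27 at low GC to -0.25 at high GC, and Hes5 and Neurog2 lie above while Dcx lies below genes of like GC (43 genes beyond 1.5 in size are drawn at that edge).

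Set beside genes within 1 percentage point of the same GC content, the neurogenic genes stood in another order. Dcx, at -0.056, compared with a median of 0.22 over 651 such genes, and Hes5, at 0.26, with -0.25 over 291 genes. Neurod1 at 0.50 compared with 0.14 over 1119 genes and Neurog2 at 0.58 with -0.12 over 1442 genes. Sox4, at -0.090, was close to the 0.0024 of its GC neighbors.

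With a correction for GC content and length in the fit, the log2 fold change was -0.27 ± 0.13 (SE) for Dcx and 0.60 ± 0.26 for Hes5. It was 0.40 ± 0.13 for Neurod1, 0.74 ± 0.39 for Neurog2 and 0.20 ± 0.12 for Sox2. Corrected levels of Dcx were 15.3 and 16.4 CPM in FLOX+GCI and 14.4 and 11.98 CPM in the knockout, with both knockout libraries lower. Corrected levels of Hes5 were 7.53 and 5.01 CPM against 7.66 and 11.4 CPM, so that its groups no longer overlapped. After the correction 5 of the 7 genes had groups that did not overlap, Dcx lower and Neurod1, Sox2, Hes5 and Neurog2 higher, beside 44.3% of all genes. The median over the 7 was 0.20, beside 0.029 over all genes. None passed the threshold, with adjusted p-values by edgeR of 0.493 for Dcx, 0.447 for Hes5, 0.371 for Neurod1 and 0.522 for Neurog2, and Neurod1 remained the only one under 0.05 unadjusted.

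The wider pathways were described by lists, without a test of any list. By edgeR's quasi-likelihood test, 0 genes were called in each of the 5 pathway lists. Of 20 radial glia-like stem cell genes, 7 were higher and 13 lower in the knockout, with a median log2 fold change of -0.042 (all genes -0.0074), and 2 were lower at an unadjusted p under 0.05. These were the intermediate filament genes Vim and Nes, both of which also mark reactive astrocytes and vessel cells. Vim had 66.5 and 72.5 CPM in FLOX+GCI and 54.8 and 44.1 CPM in the knockout. Both knockout libraries were lower, with a log2 fold change of -0.49 ± 0.12 (SE) and adjusted p-values of 0.238 by the quasi-likelihood test, 0.0202 by the likelihood ratio test and 0.0164 by DESeq2. Nes had 11.7 and 10.8 CPM against 8.72 and 7.17 CPM, a log2 fold change of -0.49 ± 0.16 (SE) with an adjusted p of 0.248 by the quasi-likelihood test. Id3, an inhibitor of basic helix-loop-helix factors, had a log2 fold change of -0.27 and an unadjusted p of 0.0884 by edgeR. With the GC and length correction the log2 fold change was -0.38 for Vim, -0.41 for Nes and -0.091 for Id3.

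The vessel markers had lower means in the knockout, as Vim and Nes did. The 8 endothelial cell genes summed to 256 and 191 CPM in FLOX+GCI and 207 and 151 CPM in the knockout. Knockout replicate 2 was the lowest library for 8 of 8. The sums overlapped between genotypes, and replicate 2 was the lower library in each, whereas Vim was highest in FLOX+GCI replicate 2. The median log2 fold change of these markers was -0.37 and 8 of 8 were lower, beside 7458 of all 14527 genes tested. For 2 of them the groups did not overlap (51.8% of all genes). None was called by edgeR's quasi-likelihood test, with 1 at an unadjusted p under 0.05. Flt1, a receptor for vascular endothelial growth factor, had 61.9 and 45.5 CPM in FLOX+GCI and 50.6 and 40.5 CPM in the knockout. Ly6c1, a surface protein gene of vessel cells, had 28.4 and 33.5 CPM against 32.7 and 26.5 CPM, with overlapping groups and a log2 fold change of -0.062, or 0.025 after the GC and length correction. With that correction the list median was -0.25. The part of vessel cells in the Vim, Nes and Notch values was not tested.

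Of 25 Notch pathway genes, 5 were higher and 20 lower in the knockout, counted like the separations below without a correction for GC content. Their median log2 fold change was -0.20, and -0.089 with GC content and length corrected, when that of all genes was 0.029. Groups did not overlap for 15 of the 25, 2 higher and 13 lower, beside 51.8% of all genes in either direction. Of all 14527 genes tested, 3769 were higher and 3754 lower in this way. At an unadjusted p under 0.05 there were 5 lower and 1 higher, and the likelihood ratio test and DESeq2 called 0 (DESeq2 gave 5 of the 25 an adjusted p). The receptor gene Notch3, best known in the mural cells of vessels, had 18.8 and 11.9 CPM in FLOX+GCI and 10.4 and 8.84 CPM in the knockout, a log2 fold change of -0.67 ± 0.22 (SE) with an adjusted p of 0.248 by edgeR. The ligand gene Jag2 had a log2 fold change of -0.34 and the inhibitor gene Numbl one of -0.26, with adjusted p-values by edgeR of 0.255 and 0.248. Corrected for GC content and length, Notch3 stood at -0.50, Jag2 at -0.11 and Numbl, whose direction turned, at 0.037. The correction also turned Maml1 to 0.052, Hes1 to 0.015, Lfng to 0.21 and Rfng to 0.039, named after their values were seen. Hes5, at 0.26, was one of the 5 Notch genes with a higher mean in the knockout before the correction. Its fellow target Hes1 had 14.4 and 10.7 CPM in FLOX+GCI and 11.98 and 12.15 CPM in the knockout (a gene named after its values were seen). In Hes1 as in Hes5, FLOX+GCI replicate 2 was the lowest library.

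Of 10 intermediate progenitor genes, 9 were tested, 3 higher and 6 lower, with a median log2 fold change of -0.049. Elavl2, a neuronal RNA-binding protein, had 92.5 and 82.1 CPM in FLOX+GCI and 98.3 and 130 CPM in the knockout, a log2 fold change of 0.39 ± 0.14 (SE). The antiproliferative gene Btg2 had a log2 fold change of -0.48 ± 0.19 (SE) and Mfng, a modifier of Notch receptors, one of -0.32 ± 0.18 (SE). Corrected for GC content and length these were 0.14, -0.47 and -0.10. Adjusted p-values by edgeR were 0.255, 0.278 and 0.401, and the other tests called 0 of the list (DESeq2 gave 1 of the 9 an adjusted p). At an unadjusted p under 0.05 there were Elavl2 and Btg2.

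Of 20 neuroblast and immature neuron genes, 19 were tested, 12 higher and 7 lower, with a median log2 fold change of 0.062. At an unadjusted p under 0.05 there was Neurod1 alone, and the other tests called 0 (DESeq2 gave 10 of the 19 an adjusted p). Prox1, the homeobox factor of the granule cell lineage, had a log2 fold change of 0.19 ± 0.085 (SE). Tubb3, a neuronal tubulin, had one of -0.14 ± 0.068 (SE) and Neurod6, a relative of Neurod1 in pyramidal neurons, one of 0.15 ± 0.076 (SE). Their adjusted p-values by edgeR were 0.314, 0.333 and 0.357. With the GC and length correction Prox1 was at 0.21, Neurod6 at 0.027 and Tubb3 at 0.075, the last with its direction turned.

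In the cell cycle list, mean levels over the 4 libraries ran from 0.0605 CPM for Ccnb1 to 16.6 CPM for Mcm6, both named after their values were seen. Of 18 cell cycle genes, 14 passed the filter, 6 higher and 8 lower, with a median log2 fold change of -0.12, 1 at an unadjusted p under 0.05 and 0 called by either edgeR test, and DESeq2 gave no gene of this list an adjusted p. The one gene was Mcm2, a subunit of the replicative helicase, with 6.90 and 8.88 CPM in FLOX+GCI and 5.40 and 4.68 CPM in the knockout and a log2 fold change of -0.65 ± 0.19 (SE), adjusted p 0.245 by edgeR. Tyms, which makes thymidylate, and Ccna2, a cyclin of DNA replication, had log2 fold changes of -0.48 ± 0.29 (SE) and -0.60 ± 0.38 (SE). Mki67, the common marker of proliferation and named after its values were seen, had 0.439 and 0.649 CPM against 0.603 and 0.478 CPM, with overlapping groups.

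**Figure D4:**
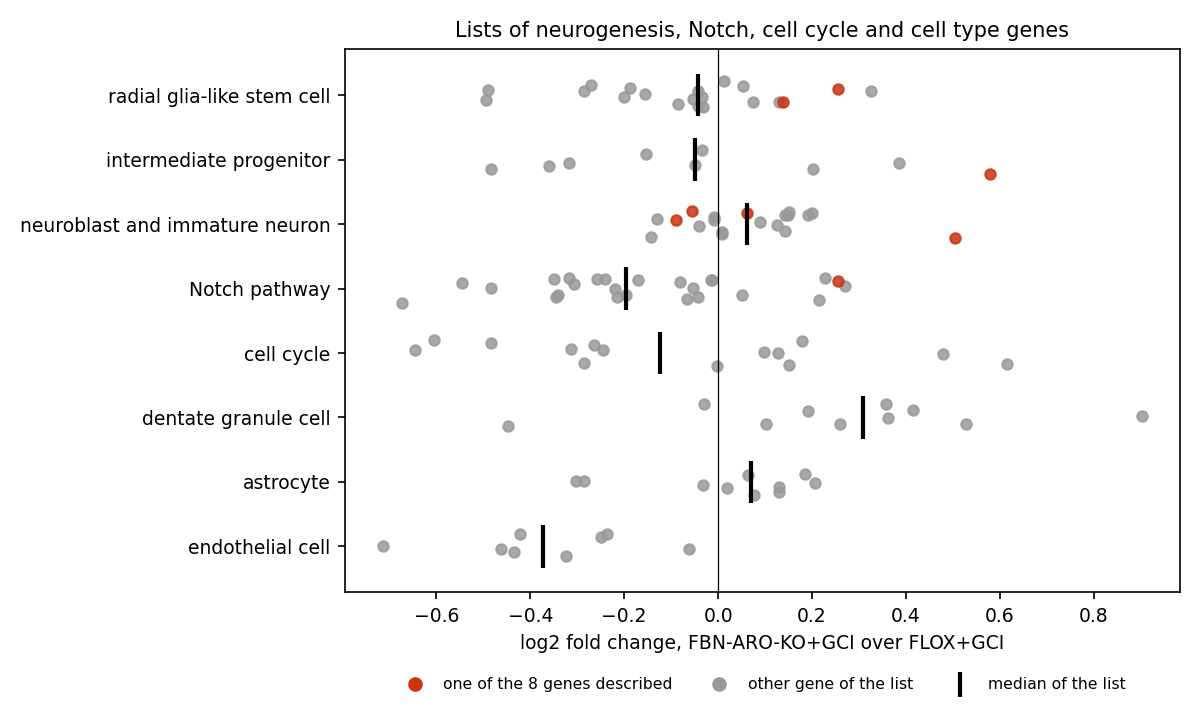
Log2 fold change (x axis, FBN-ARO-KO+GCI over FLOX+GCI) of the tested genes of 5 pathway lists and 3 cell type marker lists (rows), with the neurogenic genes in red, other genes in gray and the list median as a bar. Medians were 0.062 for neuroblast genes, -0.20 for Notch genes, 0.31 for granule cell markers and -0.37 for endothelial markers.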

How the data were processed

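Hippocampal RNA of 4 libraries (2 FLOX+GCI, 2 FBN-ARO-KO+GCI, grouped by their labels) was sequenced as 50 nt single-end reads. Per the submitters' processing notes and methods, the authors used bcl2fastq, aligned to mm9 with TopHat2 2.0.8b and made the deposited files with HTSeq, as raw counts for each gene symbol without normalization. Neither HTSeq's version nor its strand setting and annotation are given in the sources used here. The 5 counters of unassigned reads, 43.4 to 45.5% of the summed counts per library, were left out.

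From the counts, genotypes were compared by edgeR 4.0.16 in R 4.3.3 with the quasi-likelihood test, TMM, filterByExpr (minimum count 10) and Benjamini-Hochberg adjustment over all 14527 genes tested at 0.05. The authors used DESeq, and DESeq2 1.42.0 was an alternative. SE was the size of the log2 fold change over the root of F. Log2 CPM used a prior count of 2, and counting intervals are 95% exact Poisson intervals. The correction for GC content and length uses natural splines (5 degrees of freedom) per library, passed to edgeR as offsets. Gene positions, lengths and GC content came from GENCODE M1 on NCBIM37, with a single locus for 21430 symbols and a protein-coding transcript for 20245. The longest such transcript was used. Promoter sequences came from RefSeq on GRCm38.p6, whose coordinates differ from those of NCBIM37.

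Other alternatives were DESeq2 size factors in edgeR, library totals, the likelihood ratio test, a filter at 1 count, a filter at a mean of 50 counts, the replicate block and each library left out. The procedure was tested on simulated data. The 8 genes and all lists (5 pathways and 11 cell types, 175 of 178 symbols in the files) were chosen with earlier results of these data known. Genes named from a pathway list are up to 3 with the smallest unadjusted p besides the 8, from a marker list the 2 with the highest mean CPM, and 3 nearest to Dcx. Exceptions are marked in the text.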

Additional observations from a re-analysis of the deposited data

How the results depend on the processing

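None of the neurogenic genes was called under any alternative run (DESeq2 gave them no adjusted p), and Neurod1 (0.30 to 0.68 without each library), Neurog2 and Dcx had the same direction in each alternative that tested them. Over all genes, 2 were called in the main comparison, 285 by DESeq2, 294 by the likelihood ratio test, 5 with every gene of at least 1 count, 1 when GC content and length were corrected with the replicate block, and 0 to 193 when each library was left out, with 193 without FLOX+GCI replicate 1, 127 without FLOX+GCI replicate 2 and 0 without either FBN-ARO-KO+GCI library. The median of the neurogenic genes was 0.10 with library totals, 0.10 with every gene of at least 1 count, 0.20 with the GC correction, 0.21 with that correction and the block, and -0.014 to 0.31 over libraries left out. Groups did not overlap for 5 with the correction, for 5 with correction and block, and for 4 to 6 without a library. Fewer libraries separate more easily, and no share over all genes is given for the runs without a library. The 4 to 6 therefore cannot be set beside a background, and no conclusion is drawn from them. Leaving out each library gave -0.014 to 0.31 for Sox2, -0.032 to 0.61 for Hes5, -0.95 to 0.63 for Igfbpl1 and -0.25 to 0.053 for Sox4, which thereby change direction. The cause was not tested.

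The replicate block called 184 genes and none of the neurogenic ones, with Neurod1 at an adjusted p of 0.101 by edgeR and Igfbpl1 turned to -0.031. Same-numbered libraries are not said to share a batch, and their deviations from the group means correlated at 0.129 over 14527 genes. With 2 libraries a group, both pairs give this same value by construction, so they are not independent observations. Among the marker lists the block also called Calb1 and Tdo2 (granule cell, higher in FBN-ARO-KO+GCI), Cdh5 (endothelial) and Kcnj13 and Ttr (choroid plexus), the last 3 lower. They are named here because the block called them, after their values were seen. Counts per library were 3 to 8 for Eomes, 11 to 29 for Neurog2 and 18 to 61 for Igfbpl1, so counting error is large for these genes. With 2 libraries a group, the spread between libraries is poorly known for every gene. The part of each in the values was not tested.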

Other observations

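Other cell types of the hippocampus and its borders were read through their marker lists, as values without explanation. The CA pyramidal cell genes had a median log2 fold change (FBN-ARO-KO+GCI over FLOX+GCI) of 0.048, with 6 of 10 higher. The 8 oligodendrocyte precursor genes summed to 437 and 508 CPM in FLOX+GCI and 495 and 471 CPM in FBN-ARO-KO+GCI, with a median of -0.091. Microglia genes summed to 481 and 473 CPM against 460 and 500 CPM (median -0.047), and the interneuron genes to 1092 and 1041 CPM against 993 and 983 CPM (median -0.091). Subventricular zone neuroblast genes had a median of -0.032 over 7 tested. Ependymal cell genes summed to 16.8 and 16.7 CPM against 18.2 and 19.3 CPM (median 0.23), choroid plexus genes to 65.8 and 51.0 CPM against 44.2 and 49.9 CPM (median 0.094 over 5 tested), and Cajal-Retzius cell genes to 219 and 216 CPM against 203 and 208 CPM (median 0.0035 over 5 tested). With the GC and length correction these medians were 0.11 for oligodendrocyte precursors and 0.11 for microglia, both with the direction turned, 0.13 for pyramidal cells, -0.052 for interneurons, -0.011 for subventricular zone neuroblasts, 0.33 for ependymal cells, 0.063 for choroid plexus and 0.12 for Cajal-Retzius cells. No gene of these lists was called by edgeR's quasi-likelihood test, and the numbers at an unadjusted p under 0.05 were 3 interneuron genes (all lower), 3 pyramidal cell genes, 2 Cajal-Retzius cell genes and 1 each of the precursor, ependymal and choroid plexus lists. DESeq2 called Gpr17, Npy and Sst, and the likelihood ratio test called Gpr17, Sst and Ttr, which are named after their values were seen.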
